A study of Homo sapiens with 6 samples.

Results

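The epithelial keratins examined here were KRT7, KRT8, KRT10, KRT15, KRT18, KRT19, KRT20, KRT23, KRT80 and KRT81, 10 of the 55 keratin genes among 27434 quantified genes. They were taken by symbol, through the Entrez identifier of each gene, and not by a cutoff on their values. The list was chosen with earlier results of these data known. All 10 had enough counts to be tested. KRT80, a type II keratin, was higher in both siHOXB-AS3 libraries and lower in both siHOXA-AS3 libraries than in the siNT libraries. KRT19, a type I keratin of simple epithelia, was lower in both siHOXB-AS3 libraries. Groups that did not overlap were common, at 61.8% of all genes tested for siHOXB-AS3 against siNT and 28.6% for siHOXA-AS3. None of the 10 passed the adjusted threshold when all 6 libraries were fitted, and some of them passed in other fits. With a trend on GC content removed, KRT80 and KRT19 passed for siHOXB-AS3 against siNT, beside 15.2% of all genes.

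The cells were HT-29, an established human colorectal adenocarcinoma line. They were transfected with an siRNA pool against the lncRNA HOXA-AS3 (siHOXA-AS3), with one against the lncRNA HOXB-AS3 (siHOXB-AS3) or with a non-targeting pool (siNT), and collected after 48 hours, with 2 polyA RNA-seq libraries per group. The sample labels give a dose of 10 nM, and the study's methods state a different one. No source used here says that the replicates came from separate cultures, so the p-values measure only the spread between these libraries, which may be technical.

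Keratins are the intermediate filament proteins of epithelial cells. A filament is built from heterodimers of an acidic type I chain and a basic type II chain, so each cell needs both kinds. In the simple epithelium of the intestine the main partners are KRT8 (type II) and KRT18 (type I), with KRT19 and KRT20 as further type I chains, and KRT20 marks differentiated enterocytes and goblet cells. Keratins such as KRT5, KRT14 and KRT13 belong to basal or stratified epithelia instead.

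Total expected counts per library ranged from 15998518 to 26263938. HOXA-AS3 had expected counts of 38 and 18 (siNT), 12 and 12 (siHOXA-AS3) and 30 and 22 (siHOXB-AS3). HOXB-AS3 had 303 and 213 counts with siNT, 263 and 208 with siHOXA-AS3, and 67 and 76 with siHOXB-AS3. Each targeted lncRNA was thus lowest in the group that bears its name, also per length and depth. Of 6 markers of colon epithelium, 5 had a mean of at least 1 FPKM, a level scaled by transcript length and library size, and CDX2 was at 0.10 to 0.34 FPKM. The summed FPKM of these markers was 1672 to 1765 with siNT, 1623 to 2299 with siHOXA-AS3 and 1045 to 1271 with siHOXB-AS3, most of it LGALS4, and the part of this difference in the keratin values was not tested. Among 7 markers of stratified or basal epithelium, KRT5, KRT6A and TP63 were listed at 0 in every library and only KRT13 had a mean of at least 1 FPKM. Fibroblast markers summed to at most 0.15 FPKM and endothelial markers to at most 0.07 FPKM in any library. Of the leukocyte markers CD68 was at 9.74 to 15.69 FPKM, and PTPRC and CD3E were each at 0.10 FPKM or less.

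The siRNAs define the groups and are therefore shown. Capitals mark the 7 bases that pair with the seed of the guide strand (its bases 2 to 8), and the strand printed is the one identical to the target lncRNA.
siHOXA-AS3 siRNA 1: gagacagaauaGCGAACAa
siHOXA-AS3 siRNA 2: caauggaagggCCGAACAa
siHOXA-AS3 siRNA 3: aggaaaggacaGCGAAGCu
siHOXA-AS3 siRNA 4: guagacagggcACUCGUUa
siHOXB-AS3 siRNA 1: cgacaaagggaGACAAAGuuu
siHOXB-AS3 siRNA 2: gagucgggcauGAAAGAAauu
siHOXB-AS3 siRNA 3: gucaaggggugAAGGGAAauu
The 7 strands were kept because 19 bases of each occur in their lncRNA in the GENCODE transcripts, so that match is no result. None of the 7 matched a keratin transcript. For each of 19669 coding genes the longest coding transcript was searched for the 7 capital bases. Of the members, 2 (KRT19 and KRT80) held a match to the siHOXA-AS3 pool, beside 18.2% of all coding genes. For the siHOXB-AS3 pool, 6 of the 10 held a match, beside 62.5% of all coding genes. KRT80 held 1 match to each pool, KRT19 held none to the siHOXB-AS3 pool, and KRT8, KRT18 and KRT7 held none to either. Such a match is a description of letters, and its part in any value was not tested.

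Levels of the members spanned 4 orders of magnitude in FPKM, which is scaled by length and so allows genes to be compared. In the siNT libraries KRT18 was the most abundant, at 2183 ± 126.8 FPKM (SD, n = 2). KRT8, its partner, followed at 422.5 ± 70.5 FPKM, then KRT20 at 249.7 ± 22.6 FPKM and KRT19 at 188.5 ± 9.63 FPKM. KRT80, a type II keratin of the lateral cell border in several epithelia, stood at 48.1 ± 4.08 FPKM, and KRT10, known best from the upper layers of the epidermis, at 30.9 ± 0.304 FPKM. Each of these was above the next in both siNT libraries. Across all 6 libraries KRT8 and KRT20 overlapped, as did KRT80 and KRT10. KRT7, a type II keratin of ducts and simple epithelia other than the colon, averaged 2.90 FPKM and KRT15, a keratin of basal cells, 2.06 FPKM. The hair keratin KRT81 (0.32 FPKM) and KRT23 (0.20 FPKM) were the lowest and rested on 9.91 to 26.77 and 6 to 14 expected counts per library, so that their values carry a large counting error.

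**Figure D1:**
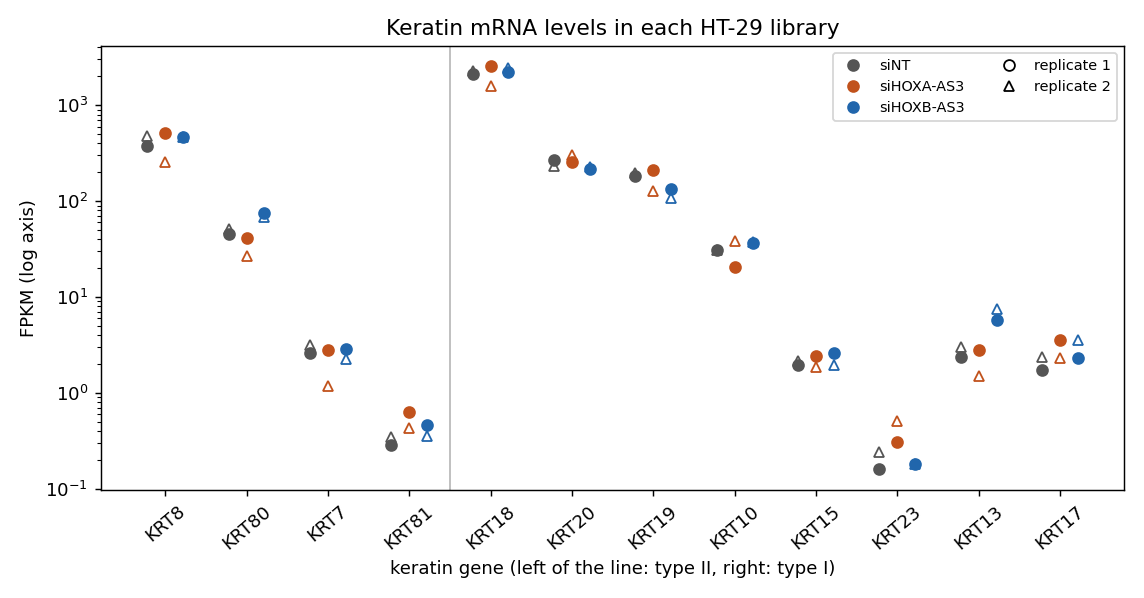
FPKM (log axis) of the 10 members and of KRT13 and KRT17 in each library, type II genes left of the line and type I genes right of it. Colours give the group, filled circles replicate 1 and open triangles replicate 2. KRT18 lies between 1588 and 2558 FPKM in all 6 libraries, and KRT80 separates the groups, with siHOXB-AS3 at 68.65 and 74.55 FPKM and siHOXA-AS3 at 26.85 and 41.60 FPKM.

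The 10 members together made up 99.6% to 99.8% of all keratin FPKM, and 30 of the 55 keratin genes had 0 counts in every library. KRT18 alone held 67.6% to 72.4% of it and KRT8 10.9% to 14.8%. The 28 type I genes outweighed the 26 type II genes in every library. The type II share was 14.1% and 16.1% with siNT, 15.5% and 12.1% with siHOXA-AS3, and 17.2% and 16.1% with siHOXB-AS3. The difference from siNT was 1.58 percentage points for siHOXB-AS3 and -1.30 points for siHOXA-AS3. The groups overlapped in both comparisons (exact permutation test, two-sided p = 0.667 for each; the smallest p that 2 libraries against 2 allow is 0.333). Without siHOXA-AS3 replicate 2 the siHOXA-AS3 difference turned to 0.394 points above siNT. KRT18 exceeded KRT8 by an FPKM ratio of 5.62 and 4.81 with siNT, 4.97 and 6.22 with siHOXA-AS3, and 4.76 and 5.18 with siHOXB-AS3, and the ranges of the groups overlapped.

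All keratins summed to 0.439% and 0.461% of TPM (transcript numbers scaled to a fixed sum) with siNT, to 0.509% and 0.353% with siHOXA-AS3, and to 0.440% and 0.471% with siHOXB-AS3. The difference of the means from siNT was 52.1 TPM for siHOXB-AS3 and -192.0 TPM for siHOXA-AS3. Neither difference exceeded the spread between replicates, whose pooled SD was 189.0 and 785.6 TPM (exact permutation test, two-sided p = 0.667 for siHOXB-AS3 and 1 for siHOXA-AS3). The siHOXA-AS3 libraries thus held both the highest and the lowest keratin sum. Without siHOXA-AS3 replicate 2 that group was 585.7 TPM above siNT. Without siHOXB-AS3 replicate 2 the siHOXB-AS3 difference was -100.9 TPM, and without siNT replicate 1 it was -58.8 TPM.

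**Figure D2:**
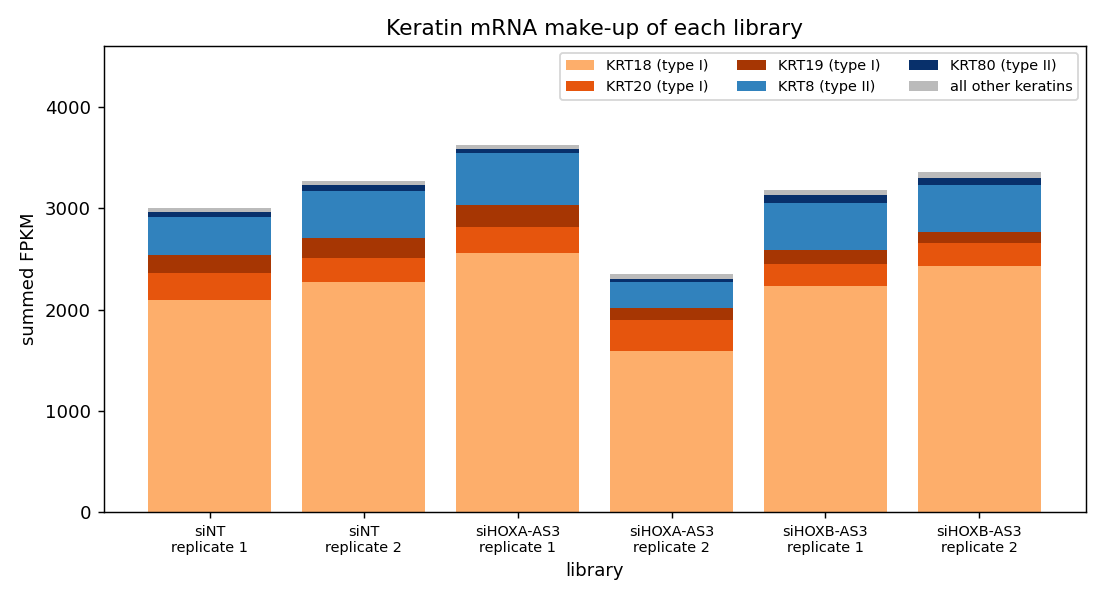
Stacked FPKM of the keratins in each library, with type I genes in orange, type II genes in blue and the remaining keratins in grey. KRT18 fills 67.6% to 72.4% of every bar, and siHOXA-AS3 replicate 2 has the shortest bar.

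The siHOXA-AS3 libraries stood apart from each other, and the keratins showed it clearly. Across all genes tested, replicates differed on the log2 scale with an SD of 0.726 (siHOXA-AS3), 0.425 (siNT) and 0.371 (siHOXB-AS3). Over genes, which are not independent, the siHOXA-AS3 difference (replicate 2 minus replicate 1) had a Pearson r of -0.743 with the GC content of the mRNA. The r was 0.372 for siNT, in the other direction, and -0.141 for siHOXB-AS3. Of the 10 members and the 2 other keratins with at least 1 FPKM, 9 were lower in siHOXA-AS3 replicate 2 and 3 were higher. The 9 lower ones had a GC content of at least 56.4%, and the 3 higher ones, KRT20 (45.6%), KRT23 (48.2%) and KRT10 (52.0%), of at most 52.0%. The median GC content of the genes tested was 49.3%. KRT8 (59.8% GC) differed by -1.01 and KRT7 (62.9% GC) by -1.21 on the log2 scale between these replicates. When a smooth trend on GC content was removed from each library, the median size of the difference over the 12 keratins went from 0.666 to 0.212. KRT10 was an exception, with a difference of 0.90 before and 1.13 after.

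**Figure D3:**
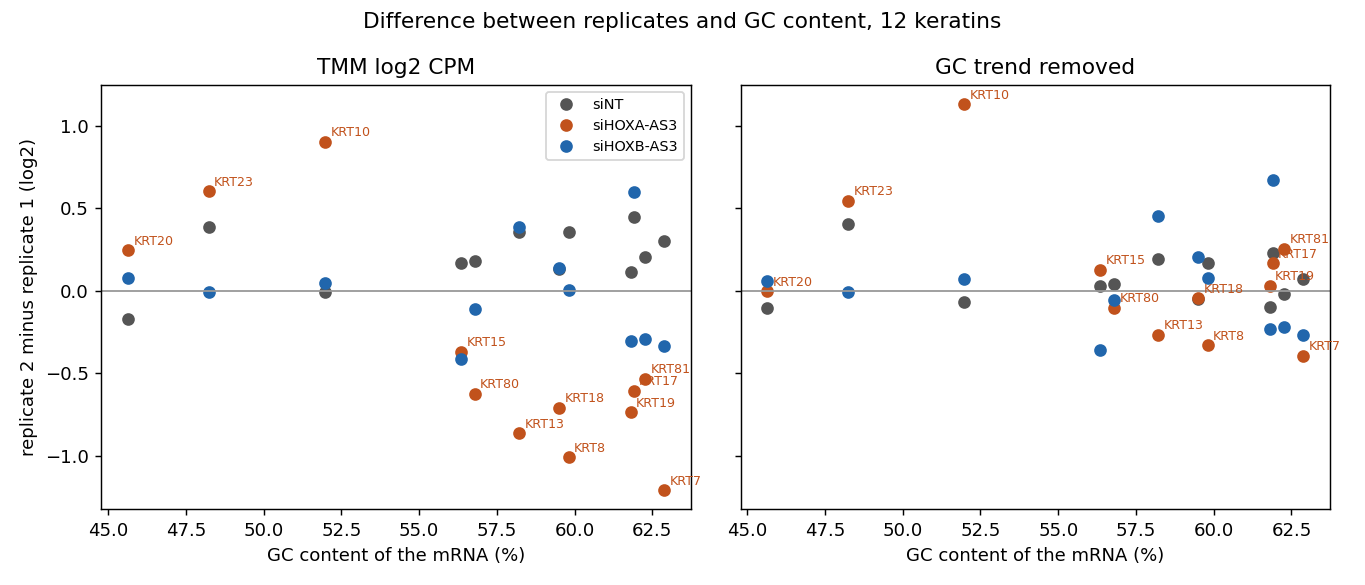
Difference between replicates (replicate 2 minus replicate 1, log2 CPM) of 12 keratins against the GC content of their mRNA in percent, before (left) and after (right) removal of a GC trend. Colours give the group, and siHOXA-AS3 points carry gene names. On the left the siHOXA-AS3 points run from 0.90 for KRT10 to -1.21 for KRT7, and on the right 10 of the 12 lie between -0.39 and 0.26, with KRT23 at 0.55 and KRT10 at 1.13.

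Among the type II members, KRT80 differed most between the knockdowns. KRT80 (Entrez 144501, chromosome 12 of GRCh38 from 52168996 to 52192000, minus strand) had log2 CPM values, TMM-normalised counts (CPM) on the log2 scale, of 7.38 and 7.57 with siNT. It was at 7.27 and 6.65 with siHOXA-AS3 and at 8.15 and 8.04 with siHOXB-AS3. Both knockdown groups lay outside the siNT range, on opposite sides. With siHOXB-AS3 the log2 fold change over siNT was 0.62 (standard error 0.225, 95% interval 0.09 to 1.16), with an adjusted p of 0.324 in edgeR's quasi-likelihood test. For siHOXA-AS3 it was -0.48 (standard error 0.226, adjusted p = 0.858 in edgeR). These comparisons share the siNT libraries. The direct comparison of siHOXB-AS3 with siHOXA-AS3 gave 1.10 (standard error 0.227), a 2.15-fold difference with an edgeR p of 0.00196 before and 0.0725 after adjustment over 13034 genes.

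With a GC trend removed, the KRT80 libraries of each group came together, at 7.41 and 7.45 for siNT, 7.03 and 6.93 for siHOXA-AS3, and 8.13 and 8.08 for siHOXB-AS3. KRT80 then passed in all 3 edgeR comparisons, at -0.45 for siHOXA-AS3 (adjusted p = 0.0259), 0.68 for siHOXB-AS3 (adjusted p = 0.00179) and 1.12 between the knockdowns (adjusted p = 9.69e-05). Over the 18 alternatives tried, its log2 fold change stayed between 0.53 and 0.72 for siHOXB-AS3 and between -0.83 and -0.20 for siHOXA-AS3. The edgeR, DESeq2 or limma adjusted p ran from 3.28e-05 to 1 for siHOXB-AS3, from 6.81e-05 to 1 for siHOXA-AS3 and from 1.58e-08 to 0.542 between the knockdowns. For siHOXB-AS3 against siNT, KRT80 also passed without either siHOXA-AS3 library, at an adjusted p of 4.49e-05 in edgeR without replicate 1 and of 3.28e-05 without replicate 2. For siHOXA-AS3 against siNT, it passed without siHOXA-AS3 replicate 1 (-0.83, edgeR adjusted p = 6.81e-05), not without replicate 2 (-0.20, adjusted p = 0.265).

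KRT8, the main type II chain, is on chromosome 12 from 52897187 to 52949954 (minus strand). Its log2 CPM was 9.27 and 9.62 with siNT, 9.74 and 8.74 with siHOXA-AS3, and 9.65 and 9.65 with siHOXB-AS3. The siHOXB-AS3 libraries lay narrowly above both siNT libraries, at 0.20 (standard error 0.313, edgeR adjusted p = 0.867), and the siHOXA-AS3 libraries lay on both sides of them. The fold change for siHOXA-AS3 was -0.13 with both libraries (95% interval -0.87 to 0.62) and 0.30 without replicate 2. KRT7 had 108 and 81 counts with siNT, 105 and 32 with siHOXA-AS3, and 114 and 79 with siHOXB-AS3, so only siHOXA-AS3 replicate 2 fell outside the rest. KRT81 was at 0.29 and 0.35 FPKM with siNT, 0.64 and 0.43 with siHOXA-AS3, and 0.46 and 0.36 with siHOXB-AS3. Both knockdown groups lay above siNT, with log2 fold changes of 0.76 (standard error 0.433) and 0.39 (standard error 0.439) and edgeR adjusted p-values of 0.910 and 0.799. KRT81 lies inside the span of KRT86 on the opposite strand and is nearly identical in sequence to KRT86 and KRT83, and its expected counts were not whole in every library, so its reads may be split among these genes.

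The type I members included KRT19, the member with the lowest fold change for siHOXB-AS3. KRT19 (Entrez 3880, chromosome 17 from 41523617 to 41528308, minus strand) is the smallest keratin and lacks most of the tail domain. Its log2 CPM was 7.92 and 8.03 with siNT, 8.14 and 7.41 with siHOXA-AS3, and 7.51 and 7.21 with siHOXB-AS3. Neither siHOXB-AS3 value reached the siNT range, and siHOXA-AS3 lay on both sides of it. For siHOXB-AS3 the log2 fold change was -0.61 (standard error 0.257, 95% interval -1.22 to 0.000888), with an edgeR p of 0.0503 before and 0.411 after adjustment. It was -0.53 with the GC trend removed (standard error 0.103, edgeR adjusted p = 0.00953) and -0.61 with only siNT and siHOXB-AS3 fitted (adjusted p = 0.000187). Over its 18 alternatives it stayed between -0.77 and -0.46, with adjusted p-values from 9.22e-05 to 1 in edgeR, DESeq2 or limma. For siHOXA-AS3 the log2 fold change was -0.15 (edgeR adjusted p = 0.997), and 0.17 without siHOXA-AS3 replicate 2.

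KRT20, the marker of differentiated colon cells, varied little. Its log2 CPM was 8.78 and 8.61 with siNT, 8.75 and 8.998 with siHOXA-AS3, and 8.55 and 8.63 with siHOXB-AS3. On this scale neither knockdown group lay outside the siNT range in full, whereas in FPKM siHOXB-AS3 (218.4 and 229.2) was just below siNT (265.7 and 233.7). On both scales both siHOXB-AS3 libraries were below both siHOXA-AS3 libraries. The log2 fold change was 0.18 for siHOXA-AS3 (95% interval -0.19 to 0.55) and -0.11 for siHOXB-AS3 (95% interval -0.48 to 0.26). Between the knockdowns it was -0.29 (standard error 0.156, edgeR adjusted p = 0.382), and -0.30 with the GC trend removed (edgeR adjusted p = 0.0339). KRT18 was at 2093 and 2273 FPKM with siNT, 2558 and 1588 FPKM with siHOXA-AS3, and 2233 and 2428 FPKM with siHOXB-AS3. The siNT values lay between the siHOXA-AS3 values. The log2 fold change of KRT18 was -0.07 for siHOXA-AS3 (standard error 0.233) and 0.14 for siHOXB-AS3 (standard error 0.233), with edgeR adjusted p-values of 0.997 and 0.870. Rows of 2 KRT8 or KRT18 pseudogenes held at most 0.0228% of the counts of KRT8, KRT18 and KRT19 in any library.

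KRT10 had 31.14 and 30.71 FPKM with siNT, 20.51 and 38.22 FPKM with siHOXA-AS3, and 36.86 and 37.81 FPKM with siHOXB-AS3. Both siHOXB-AS3 libraries were above siNT, at a log2 fold change of 0.32 (standard error 0.290, edgeR adjusted p = 0.729), which passed with only those 2 groups fitted (adjusted p = 0.0333). In FPKM the siHOXA-AS3 libraries were the lowest and the highest of all 6. In log2 CPM siHOXA-AS3 replicate 2 (6.26) was just below siHOXB-AS3 replicate 2 (6.29). KRT10 overlaps the antisense gene KRT10-AS1, which held 362 to 629 counts per library, and whether counting used the strand is not given in the sources used here. KRT15 had 88 and 60 counts with siNT, 99 and 55 with siHOXA-AS3, and 111 and 73 with siHOXB-AS3, and the groups overlapped. KRT23 had 7 and 6 counts with siNT, 12 and 14 with siHOXA-AS3, and 8 and 7 with siHOXB-AS3. Its log2 fold change of 1.07 for siHOXA-AS3 (standard error 0.523, edgeR adjusted p = 0.867) rested on these few counts.

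**Figure D4:**
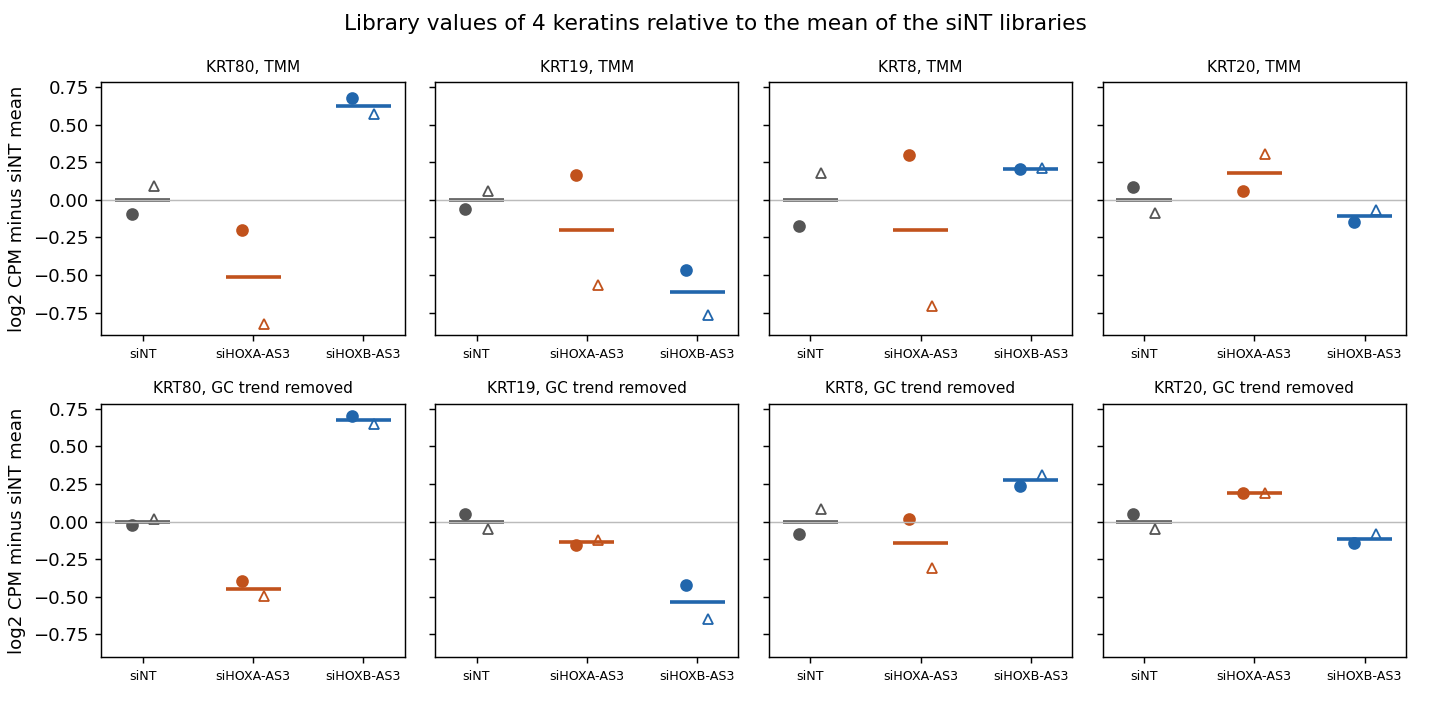
Log2 CPM of KRT80, KRT19, KRT8 and KRT20 in each library minus the mean of the siNT libraries, with TMM normalisation (top) and with a GC trend also removed (bottom). Filled circles are replicate 1, open triangles replicate 2 and bars the group mean. The siHOXA-AS3 replicates of KRT80 differ by 0.62 at the top and 0.10 at the bottom, and siHOXB-AS3 lies above siNT and siHOXA-AS3 below it in both rows.

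Counted over the members, siHOXA-AS3 against siNT gave 4 log2 fold changes above 0 and 6 below, with a median of -0.07 beside 0.01 for all genes tested. With all 6 libraries in edgeR, 0 of 10 members passed, as did 0.0% of all genes, and 0 had an unadjusted p below 0.05, beside 6.16% of all genes. In log2 CPM the groups did not overlap for 3 members (KRT80, KRT81 and KRT23), beside 28.6% of all genes. With the GC trend removed, 1 of 10 passed (KRT80), beside 4.96% of all genes, and the groups did not overlap for 8, beside 47.8%. EdgeR called 0 members with only these 2 groups fitted (0.0% of all genes), and DESeq2 called 0 (0.397% of all genes). Single libraries decided these counts. Without siHOXA-AS3 replicate 1, edgeR called 6 members (KRT7, KRT8, KRT18, KRT19 and KRT80 lower and KRT20 higher), beside 30.3% of all genes. Without replicate 2 it called 1 (KRT10, lower), beside 17.9% of all genes.

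For siHOXB-AS3 against siNT, 7 members were above 0 and 3 below, with a median log2 fold change of 0.17 beside -0.01 for all genes. With all 6 libraries edgeR called 0 of 10 members, beside 0.0614% of all genes, and KRT80 alone had an unadjusted p below 0.05, beside 12.2% of all genes. In log2 CPM the groups did not overlap for 6 members, namely KRT8, KRT80, KRT81, KRT18, KRT10 (higher) and KRT19 (lower), beside 61.8% of all genes. In FPKM the groups overlapped for KRT8 and KRT18 and did not for KRT20. With the GC trend removed, KRT80 and KRT19 passed, 2 of 10 beside 15.2% of all genes, and the groups did not overlap for 8, beside 67.0%. With only siNT and siHOXB-AS3 fitted, KRT80, KRT19 and KRT10 passed, 3 of the 9 members kept by the filter beside 23.3% of all genes. DESeq2 called 0 members, beside 2.84% of all genes. Leaving out either siHOXA-AS3 library from the fit of all groups also gave 3 called members, KRT80, KRT19 and KRT10, beside 22.7% of all genes without replicate 1 and 22.6% without replicate 2.

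Between siHOXB-AS3 and siHOXA-AS3, 6 members were above 0 and 4 below, with a median of 0.16 beside -0.01 for all genes. EdgeR with all 6 libraries called 0 of 10, beside 1.57% of all genes, and KRT80 alone had an unadjusted p below 0.05, beside 18.4%. In log2 CPM the groups did not overlap for KRT80 (higher), KRT20 and KRT23 (both lower), beside 45.3% of all genes. With the GC trend removed, 4 of 10 passed, KRT80 and KRT8 higher and KRT19 and KRT20 lower with siHOXB-AS3, beside 27.4% of all genes, and the groups did not overlap for 8, beside 63.4%. DESeq2 called KRT80, beside 6.26% of all genes (adjusted p = 0.000835), and edgeR with only these 2 groups called 0, beside 0.0156%. Without siHOXA-AS3 replicate 1 edgeR called 5 members, KRT7, KRT8, KRT18 and KRT80 higher and KRT20 lower, beside 37.8% of all genes. Without replicate 2 it called 3, KRT10 and KRT80 higher and KRT19 lower, beside 36.0%. KRT80 was called in both.

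**Figure D5:**
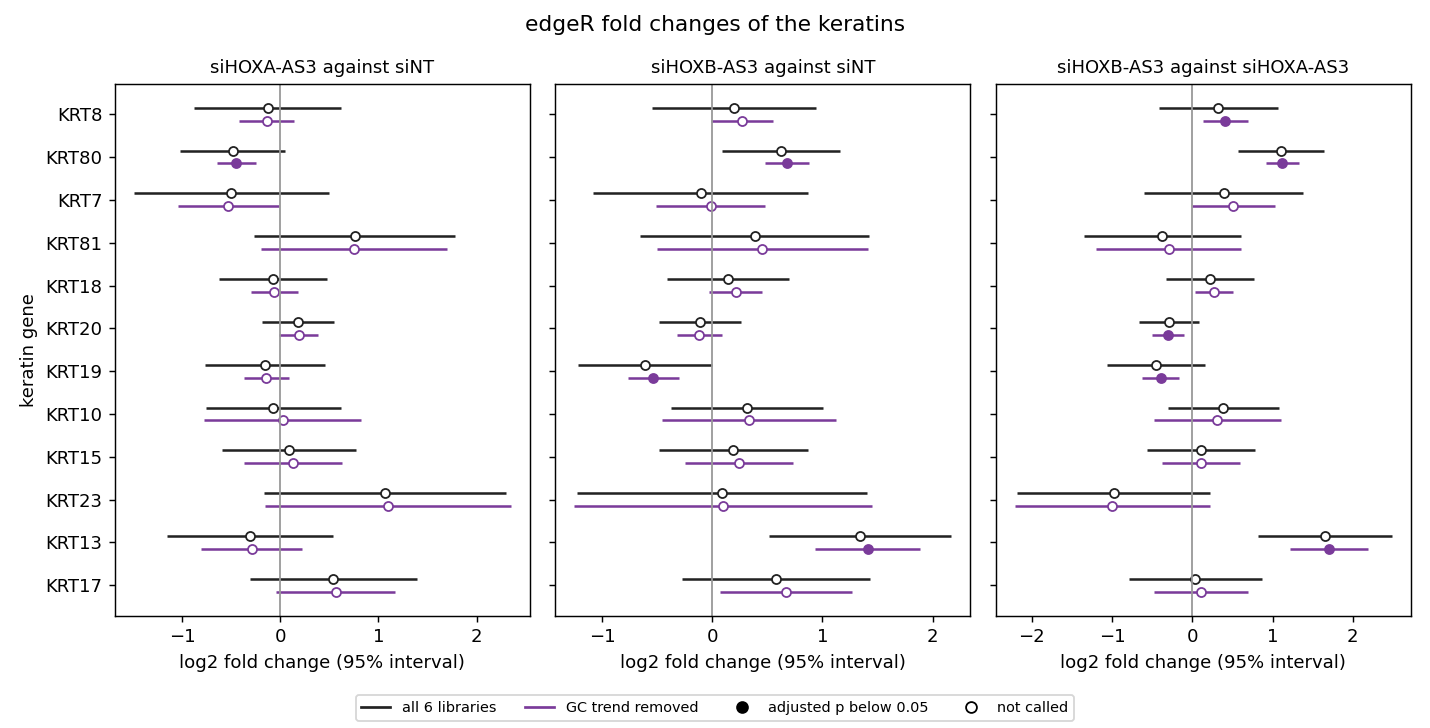
Log2 fold changes with 95% intervals of 12 keratins in the 3 comparisons, from edgeR on all 6 libraries (black) and with a GC trend removed (purple). Filled points passed an adjusted p of 0.05 and open points did not. All black points are open, and KRT80 is filled in purple in each panel, at -0.45, 0.68 and 1.12.

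Of the 45 other keratin genes, 2 reached a mean of 1 FPKM, KRT13 and KRT17, and the next was at 0.722 FPKM. KRT13, a type I keratin of internal stratified epithelia, had 2.39 and 3.05 FPKM with siNT, 2.81 and 1.51 FPKM with siHOXA-AS3, and 5.78 and 7.53 FPKM with siHOXB-AS3. Both siHOXB-AS3 libraries were above all others. The log2 fold change was 1.34 over siNT (standard error 0.348, edgeR adjusted p = 0.192) and 1.65 over siHOXA-AS3 (standard error 0.352, edgeR adjusted p = 0.0787). With the GC trend removed the edgeR adjusted p-values were 0.00325 and 0.000793, and over the alternatives for siNT they ran from 5.40e-05 to 1. KRT4, the usual type II partner of KRT13, stayed at 0.12 FPKM or less. KRT17, a type I keratin of basal and activated epithelium, was at 1.73 and 2.36 FPKM with siNT, 3.55 and 2.31 FPKM with siHOXA-AS3, and 2.33 and 3.55 FPKM with siHOXB-AS3, and passed in no comparison.

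Keratin filaments are anchored at desmosomes and hemidesmosomes by linker proteins of the plakin family, and 21 of 27 listed partners were tested. With all 6 libraries edgeR called 0 of the 21 in each comparison. The median log2 fold change was 0.17 for siHOXA-AS3 and -0.15 for siHOXB-AS3, beside 0.01 and -0.01 for all genes. Under siHOXA-AS3 the partners with the highest log2 fold changes were the integrin ITGA6 (0.59) and the desmosomal protein PERP (0.56), and those with the lowest were TCHP (-0.51) and EVPL (-0.29). Under siHOXB-AS3 the highest were DST (0.49) and DSG2 (0.30) and the lowest PLEC (-0.66) and DSP (-0.33). PLEC, the plakin that ties filaments to hemidesmosomes, had 11.76 and 14.06 FPKM with siNT, 21.98 and 11.81 with siHOXA-AS3, and 7.76 and 8.04 with siHOXB-AS3. DST, another hemidesmosomal plakin, had 13.55 and 11.28 FPKM with siNT, 8.10 and 13.22 with siHOXA-AS3, and 19.09 and 18.81 with siHOXB-AS3. PLEC was thus lowest and DST highest in the siHOXB-AS3 libraries. With the GC trend removed, edgeR called PLEC lower (adjusted p = 0.00568) and DST higher (adjusted p = 0.0161) with siHOXB-AS3, 2 of 21 partners beside 15.2% of all genes. It called ITGA6, ITGB4 and PLEC higher with siHOXA-AS3, 3 of 21 beside 4.96% of all genes. Between the knockdowns 8 of 21 passed in that fit, beside 27.4% of all genes.

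Of 13 other intermediate filament genes 4 were tested, and edgeR with all 6 libraries called 0 in each comparison. VIM, the filament of mesenchymal cells, was at most 0.17 FPKM in any library. With the GC trend removed, edgeR called 1 of the 4 for siHOXA-AS3 against siNT, beside 4.96% of all genes. It was the lamin gene LMNB2, which was lower (-0.76, edgeR adjusted p = 0.0117). LMNB2 was also called between the knockdowns, higher with siHOXB-AS3 (0.89, edgeR adjusted p = 0.00108), beside 27.4% of all genes. For siHOXB-AS3 against siNT 0 were called. LMNB2 had 6.35 and 8.05 FPKM for siNT, 5.41 and 2.94 FPKM for siHOXA-AS3, and 6.83 and 7.44 FPKM for siHOXB-AS3.

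Across the 6 libraries, with the GC trends described not removed, the log2 CPM of KRT8 and KRT18 ran together (Pearson r = 0.977). KRT18 ranked 117th among all genes by likeness to KRT8. KRT20 ran against KRT8 (r = -0.870) and against KRT80 (r = -0.939), and KRT19 had an r of 0.30 with KRT8. The 3 genes most like KRT8 were the joined row of URGCP and MRPS24 (r = 0.999), ILK (0.998) and CKB (0.998). For KRT18 they were PPP4C (0.999), ARHGEF5 (0.999) and CCDC28B (0.998). For KRT19 they included ITPKA (0.997) and NBPF15 (0.992), and for KRT20 they were GOLM2 (0.994), SH3BGRL2 (0.993) and FAM20B (0.992). None of the genes named here is a keratin.

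The RefSeq promoter table matched 3 of the members, KRT8, KRT10 and KRT20. Promoters of KRT8 and KRT20 are shown because these highly expressed members ran in opposite directions across the libraries. Each covers 250 bases before to 50 after the transcription start in RefSeq (GRCh38.p14, minus strand), KRT8 at chr12:52926420-52926719 and KRT20 at chr17:40885193-40885492. The KRT8 window lies inside the GENCODE span given above, at a start other than the outermost one. Whether the KRT8 mRNA of these cells begins at this start was not tested, so the window may not be the promoter in use. Capitals mark the letters CATAAA on either strand, which are a part of CCATAAA, one of the CDX sites named by the study.
KRT8 promoter: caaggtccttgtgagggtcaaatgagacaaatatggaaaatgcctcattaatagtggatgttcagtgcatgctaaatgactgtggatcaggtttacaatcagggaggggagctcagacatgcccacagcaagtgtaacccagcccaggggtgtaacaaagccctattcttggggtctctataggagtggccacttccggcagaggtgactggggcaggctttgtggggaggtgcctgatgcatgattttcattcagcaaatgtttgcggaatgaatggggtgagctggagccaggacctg
KRT20 promoter: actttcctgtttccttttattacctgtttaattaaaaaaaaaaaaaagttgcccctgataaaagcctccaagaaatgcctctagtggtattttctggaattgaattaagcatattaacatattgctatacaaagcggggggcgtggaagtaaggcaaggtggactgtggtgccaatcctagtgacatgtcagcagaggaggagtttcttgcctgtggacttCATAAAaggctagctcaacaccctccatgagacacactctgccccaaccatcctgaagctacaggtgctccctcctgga
The KRT20 window held CATAAA at -29 from the start, and 10.6% of 35116 promoters held it. The letters CATAAA were chosen after the sequences had been read. Neither window held TATAAA (11.5% of promoters), the longer CDX site CCATAAA (2.54%) or the GC box GGGCGG (45.0%). The GC content was 50.7% for the KRT8 window and 44.0% for the KRT20 window. The KRT10 window, not printed, held both CATAAA and TATAAA. No match means only that these letters are not in the window.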

How the data were processed

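Gene expression was measured by polyA RNA-seq in HT-29 cells, with 2 libraries each for siNT, siHOXA-AS3 and siHOXB-AS3, grouped by the sample labels. Libraries were made with a SENSE mRNA kit and quantified by the authors with RSEM, on hg19 by the submitters' processing notes. Aligner, RSEM version and strand setting were not given in the sources used here. Deposited files held expected counts, the estimated fragments of each gene, which the authors had not normalised. TPM values, which sum to a constant, and FPKM values, divided by gene length and depth, were deposited beside them.

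Expected counts were rounded and analysed with edgeR 4.0.16 in R 4.3.3. Genes passing filterByExpr (minimum count 10) were TMM-normalised and tested with the robust quasi-likelihood test over all 6 libraries, with Benjamini-Hochberg adjustment over 13034 genes and a threshold of 0.05. The GC trend was a lowess curve (span 0.3) of log2 counts on the GC content of GENCODE v29 transcripts, known for 98.8% of genes, entered as offsets. Shares and sums were tested with exact permutation tests. DESeq2 1.42.0, limma 3.58.1 on log2(FPKM + 0.1) and log2(FPKM + 1), RLE factors, library totals, other filters, unrounded counts, fewer groups, a replicate block and each library left out were alternatives. On simulated counts for 13034 genes, edgeR recovered 84.5% of 200 genes changed 4-fold in each comparison with siNT. False calls were 10 for siHOXA-AS3 and 15 for siHOXB-AS3. The simulation held neither a GC trend nor smaller changes, so it does not give the recovery for changes of the size seen in the keratins. The intervals and p-values of single libraries left out assume that the lone library varies like the others. The members, the gene lists and the alternatives were chosen with earlier results of these data known. Genes named were the members, other keratins with a mean FPKM of at least 1, the 2 highest and 2 lowest partners per knockdown, the 3 genes most like KRT8, KRT18, KRT19 and KRT20, and the targets. 1 gene most like KRT19 and 1 leukocyte marker are not reported here. Genes called by an alternative, and markers or values at an extreme, were named after their values were seen. Positions are from GENCODE on GRCh38 and were not converted.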

Additional observations from a re-analysis of the deposited data

Results flagged for a closer look

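KRT80 was singled out because the knockdown groups lay on opposite sides of both siNT libraries in log2 CPM. With the GC trend removed, the knockdown groups of KRT18, KRT20 and KRT13 also lay on opposite sides of siNT. The share of all genes with this pattern was not computed. For a single comparison with siNT, the groups did not overlap in log2 CPM for 28.6% (siHOXA-AS3) and 61.8% (siHOXB-AS3) of all genes. With the GC trend removed these shares were 47.8% and 67.0%. The log2 fold change of KRT80 for siHOXB-AS3 against siHOXA-AS3 was 1.10 in edgeR's quasi-likelihood test (standard error 0.227, adjusted p = 0.0725, range over 18 alternatives 1.58e-08 to 0.542). All of the siHOXB-AS3 libraries were higher and all of the siHOXA-AS3 libraries lower than siNT for KRT80. KRT80 did not pass the adjusted threshold with all 6 libraries.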

How the results depend on the processing

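With all 6 libraries edgeR called 0 members in each comparison. For siHOXA-AS3 against siNT the count was 1 with the GC trend removed and 0 to 6 with single libraries left out. For siHOXB-AS3 against siNT it was 3 with only the groups compared, 2 with the GC trend removed and 0 to 3 with single libraries left out. Between the knockdowns it was 1 with DESeq2, 1 without a filter, 4 with the GC trend removed and 0 to 5 with single libraries left out. The other alternatives gave 0, except the replicate block with the GC trend removed, given next. With the GC trend removed, 4.96%, 15.2% and 27.4% of all genes were called in these 3 comparisons, in the order given. The share was 23.3% for siHOXB-AS3 against siNT with only the groups compared, and 6.26% between the knockdowns with DESeq2. No share of all genes was computed without a filter, or without a siNT or siHOXB-AS3 library, so those counts have no background beside them. The cause of these differences was not tested.

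The differences between replicates (replicate 2 minus replicate 1, log2 CPM) correlated over genes at -0.347 for siNT with siHOXA-AS3. The correlation was -0.139 for siNT with siHOXB-AS3 and 0.15 for siHOXA-AS3 with siHOXB-AS3. The GC trend was not removed from these differences, so they cannot show whether libraries of the same number were handled together. With a replicate block 0 members were called in each comparison. The replicate block with the GC trend removed gave 0 for siHOXA-AS3, 2 for siHOXB-AS3 and 2 between the knockdowns. The share of all genes called was not computed for either fit with a block, so these counts have no background beside them.

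With single libraries left out, log2 fold changes for siHOXA-AS3 ran from -0.72 to 0.30 for KRT8, -0.47 to 0.24 for KRT18, -0.57 to 0.17 for KRT19, -0.58 to 0.31 for KRT10, -0.12 to 0.27 for KRT15 and -0.82 to 0.07 for KRT13. For siHOXB-AS3 they ran from -0.29 to 0.06 for KRT7, -0.03 to 0.39 for KRT15 and -0.18 to 0.32 for KRT23. Between the knockdowns they ran from -0.10 to 0.92 for KRT8, -0.08 to 1.17 for KRT7, -0.10 to 0.62 for KRT18, -0.12 to 0.32 for KRT15 and -0.30 to 0.39 for KRT17. Each of these crossed 0. KRT10 was at 0.03 for siHOXA-AS3 with the GC trend removed, and KRT23 at -0.09 and -0.02 for siHOXB-AS3 in limma with pseudocounts of 0.1 and 1.

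The type II share difference for siHOXA-AS3 ran from -3.00 to 0.394 percentage points with single libraries left out. The summed TPM difference ran from -969.8 to 585.7 for siHOXA-AS3 and from -100.9 to 205.1 for siHOXB-AS3, where it was 253.9 in CPM of the library total.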
